A study of Mus musculus with 6 samples.

Results

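The mitosis genes are a module of 43 genes whose products drive chromosome condensation, spindle assembly, the spindle checkpoint and cytokinesis. They were chosen by symbol, with no threshold on measured values, from a list written with earlier results of these data known. All 43 were found among the 16832 genes of the deposited table. They were compared between Hoxb1 gain-of-function (GoF) and control libraries of the second heart field of the mouse embryo, a progenitor population that adds myocardium to the heart tube.

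RNA was sequenced from microdissected second heart field tissue at embryonic day 9.5. The GoF libraries carried a Hoxb1 gain-of-function allele with Mef2c-Cre, and the controls (CTRL) carried Mef2c-Cre. In both groups Mef2c-Cre directs Cre to the second heart field and its descendants, while the dissected region also holds other cells. The values cover GoF replicates 1, 2 and 3 and CTRL replicates 2 and 3, while CTRL replicate 1 was not used here. Whether replicates were separate embryos or pools is not stated, so the p-values reflect the spread among 5 libraries and that spread may be technical.

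In a dividing cell, cyclin A and cyclin B activate Cdk1, which starts mitosis together with Polo-like and Aurora kinases. Condensins compact the chromosomes, kinetochores attach them to the spindle, and the spindle checkpoint holds the anaphase-promoting complex (APC/C) and its activator Cdc20 in check until every chromosome is attached. Most of these genes are transcribed mainly in G2 and mitosis, and many carry 2 promoter elements, the cell cycle genes homology region (CHR), bound by MuvB complexes, and CCAAT, bound by NF-Y. Second heart field progenitors are a proliferating population at this stage, so these transcripts are read here across a mixture of cells in all phases. In such bulk samples fewer dividing cells and less RNA per dividing cell cannot be told apart.

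Promoter windows are shown for the 3 called members of lowest adjusted p in each direction that had a window starting near the annotated gene start, to put the letters of the shared elements beside the genes whose values differed. The windows run from 250 bases before to 50 bases after the start of each gene in RefSeq (GRCm38.p6, 5′ to 3′ on the gene's strand). Capitals mark CHR (TTTGAA or TTCGAA) and CCAAT on either strand.
Plk1, chr7:122159185-122159484, plus strand: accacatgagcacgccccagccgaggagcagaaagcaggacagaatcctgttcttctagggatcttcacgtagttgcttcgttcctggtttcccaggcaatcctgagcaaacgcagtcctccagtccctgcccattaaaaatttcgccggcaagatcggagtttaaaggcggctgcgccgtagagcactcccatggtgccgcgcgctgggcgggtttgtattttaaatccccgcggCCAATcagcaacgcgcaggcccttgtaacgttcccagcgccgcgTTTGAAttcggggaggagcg
Aurka, chr2:172370521-172370820, minus strand: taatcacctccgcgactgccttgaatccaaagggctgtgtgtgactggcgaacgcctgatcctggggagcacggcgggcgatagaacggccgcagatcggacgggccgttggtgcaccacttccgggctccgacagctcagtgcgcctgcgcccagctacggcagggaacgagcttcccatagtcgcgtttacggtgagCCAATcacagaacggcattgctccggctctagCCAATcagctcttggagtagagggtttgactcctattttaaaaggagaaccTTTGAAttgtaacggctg
Cdc20, chr4:118437294-118437593, minus strand: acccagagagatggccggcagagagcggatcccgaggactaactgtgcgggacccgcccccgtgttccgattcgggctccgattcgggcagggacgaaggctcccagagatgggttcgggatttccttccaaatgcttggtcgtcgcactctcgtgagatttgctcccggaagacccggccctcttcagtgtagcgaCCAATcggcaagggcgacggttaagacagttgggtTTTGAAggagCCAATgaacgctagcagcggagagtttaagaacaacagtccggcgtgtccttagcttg
Cenpe, chr3:135212313-135212612, plus strand: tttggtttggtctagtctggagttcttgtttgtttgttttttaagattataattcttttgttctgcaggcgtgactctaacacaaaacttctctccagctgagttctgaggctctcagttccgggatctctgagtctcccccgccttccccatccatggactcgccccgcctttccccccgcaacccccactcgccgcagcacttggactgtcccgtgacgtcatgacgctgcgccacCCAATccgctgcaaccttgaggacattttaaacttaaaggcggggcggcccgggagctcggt
Mki67, chr7:135716330-135716629, minus strand: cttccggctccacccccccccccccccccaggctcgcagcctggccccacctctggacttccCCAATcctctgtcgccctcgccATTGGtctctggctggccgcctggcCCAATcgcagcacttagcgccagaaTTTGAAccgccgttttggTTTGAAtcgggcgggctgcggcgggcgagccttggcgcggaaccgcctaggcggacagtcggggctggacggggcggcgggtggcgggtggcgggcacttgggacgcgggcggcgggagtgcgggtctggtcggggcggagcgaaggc
Cenpf, chr1:189688037-189688336, minus strand: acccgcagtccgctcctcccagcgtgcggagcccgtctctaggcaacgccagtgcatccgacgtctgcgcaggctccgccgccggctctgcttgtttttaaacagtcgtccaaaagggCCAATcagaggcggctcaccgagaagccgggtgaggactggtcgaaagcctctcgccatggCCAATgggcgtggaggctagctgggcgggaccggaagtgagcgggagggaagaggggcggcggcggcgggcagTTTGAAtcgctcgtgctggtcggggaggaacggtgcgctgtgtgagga

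Plk1, Aurka and Cdc20 were higher in GoF libraries and Cenpe, Mki67 and Cenpf lower, as detailed below, and CCAAT stood in the windows of all 6. Kif2c, with a lower adjusted p than Cdc20, is not shown because its RefSeq window starts over 1000 bases from the gene start used here; that window held CHR and no CCAAT. Windows were at hand for 37 of the 43 members, and those of Ccna2, Aurkb, Kif20a, Tpx2, Incenp and Smc4 were not used here. CHR stood in 28 of the 37 windows (75.7%), against 19.4% of all 27025 windows. TTTGAA was found in 73.0% of the members' windows and TTCGAA in 8.11%, against 18.1% and 1.57% of all windows. CCAAT was found in 70.3% of the members' windows, against 37.9% of all windows, and 64.9% of the members' windows held both elements, against 7.7% of all windows. None of these searches used the read counts, neither motif contains the other, and a match is only a match of letters. Among members higher in GoF libraries 4 of 4 windows, the distant window of Kif2c included, held CHR and 3 held CCAAT. Among members lower in GoF libraries 5 of 7 held each, and among the 26 other windows 19 held CHR and 18 held CCAAT. The Cenpe window held CCAAT and no CHR.

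The libraries held 34260116, 44191917 and 42853609 reads in GoF replicates 1, 2 and 3, and 44384354 and 34342568 reads in CTRL replicates 2 and 3. Mitochondrial genes took 35.7% to 37.4% of reads in GoF libraries and 44.4% to 50.7% in CTRL libraries. Values below are the authors' normalized read counts, which are reads divided by 1 factor per library. Fold changes are GoF over CTRL on the scale of log2(normalized count + 1), tested in all 16794 genes of mean 10 or more with limma, and a gene was called at a Benjamini-Hochberg adjusted p under 0.05. GoF replicate 1 lay close to the middle of its group: it was between GoF replicates 2 and 3 in 32 of the 43 members and in 10560 of 16794 genes. Without it the calls over all genes dropped to 7.38%, against 23.2% with it, so results are also given without this library. Hoxb1 itself (chr11:96365752-96368256) had 1021.3, 1003.0 and 1041.2 normalized counts in GoF libraries, against 751.6 and 610.2 in CTRL libraries. All GoF values of Hoxb1 were above both CTRL values (log2 fold change 0.59, SE 0.12, limma adjusted p = 0.0147, and 0.0597 without GoF replicate 1). After the GC correction described further on, the log2 fold change of Hoxb1 was 0.26 (limma adjusted p = 0.251).

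The second heart field list was measured in 9 of its 10 genes, and its summed normalized count was 11363.4 to 12199.6 in GoF libraries and 9425.2 to 11403.7 in CTRL libraries. Of its 9 genes, 2 were called higher in GoF libraries, Osr1 (4.26-fold, limma adjusted p = 0.00572) and Tbx5 (1.5-fold, adjusted p = 0.0295), and 1 lower, Fgf10 (0.53-fold, adjusted p = 0.00823), with a median log2 fold change of 0.58 over the list. Markers of other cells were summed in the same way. The 6 measured cardiomyocyte markers summed to 182697.5 to 231786.4 in GoF libraries and 281858.3 to 389689.7 in CTRL libraries. Most of that was Ttn, called lower. Without Ttn the sums were 61205.2 to 61844.0 in GoF libraries and 52791.6 and 61601.4 in CTRL libraries. Myl7 was called higher, and the median log2 fold change of the list, Ttn included, was 0.09. The 6 erythroid markers summed to 13785.1 to 17628.3 in GoF libraries and 6877.1 to 11064.8 in CTRL libraries, with 2 called higher and 0 lower. The 6 endothelial markers summed to 6542.7 to 6640.5 in GoF libraries and 5383.3 to 6094.6 in CTRL libraries, with 1 called in each direction. Of the other lists, 1 of 5 neural, 3 of 6 endoderm, 0 of 5 neural crest and 0 of 2 liver genes were called. The median log2 fold changes of these lists were -0.12, 0.37, 0.73 and 2.27. The most abundant genes of the neural crest and liver lists, Tfap2b and Afp, had limma adjusted p of 0.655 and 0.654. Afp, a marker of liver and yolk sac endoderm, had 143.6, 124.6 and 162.6 normalized counts in GoF libraries, against 419.8 and 8.7 in CTRL libraries 2 and 3. CTRL replicates 2 and 3 thus differed from each other in Afp by more than either did from the GoF libraries, and the 5 neural crest genes had a median log2 difference of -0.81 between CTRL replicates 2 and 3. As every gene with values had a mean of at least 6.1, no measured marker could be at 0 in every library. Of the markers of these cells, Fgf8, Nppa, Neurog1, Alb and Apoa1 had no values. After the GC correction the list medians were 0.15 for second heart field and -0.28 for cardiomyocyte genes. For neural, endoderm, neural crest and liver genes they were -0.3, -0.04, -0.01 and 2.39. Osr1 was then the only gene of these lists called higher (limma adjusted p = 0.0348), and Tbx5 did not pass (adjusted p = 0.158). Lower calls were found in the second heart field, cardiomyocyte, erythroid, neural and endoderm lists. The part of these cells in the mitosis results was not tested.

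Of the 43 mitosis genes, 6 were called higher in GoF libraries, 8 were called lower and 29 did not pass. The 6 higher genes were Plk1, Aurkb, Kif20a, Cdc20, Kif2c and Aurka, and the 8 lower were Cenpe, Mki67, Smc4, Cenpf, Kif20b, Aspm, Smc2 and Kif18a. Over all genes tested 23.2% were called, 12.2% higher and 10.9% lower, and over the members 32.6%, 14.0% higher and 18.6% lower. The share of members called higher is thus near that of all genes, and the share called lower lies above it. The median log2 fold change was -0.11 over the members and -0.01 over all genes tested. Members without overlap between the groups numbered 33 of 43, with 12 higher and 21 lower in GoF libraries, against 54.9% of all genes (27.3% higher and 27.6% lower). Without GoF replicate 1, 1 member was called higher (Aurkb) and 7 lower, beside 4.06% and 3.32% of all genes. Without CTRL replicate 3 the members called were 7 higher and 15 lower, beside 16.3% and 15.2% of all genes.

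**Figure D1:**
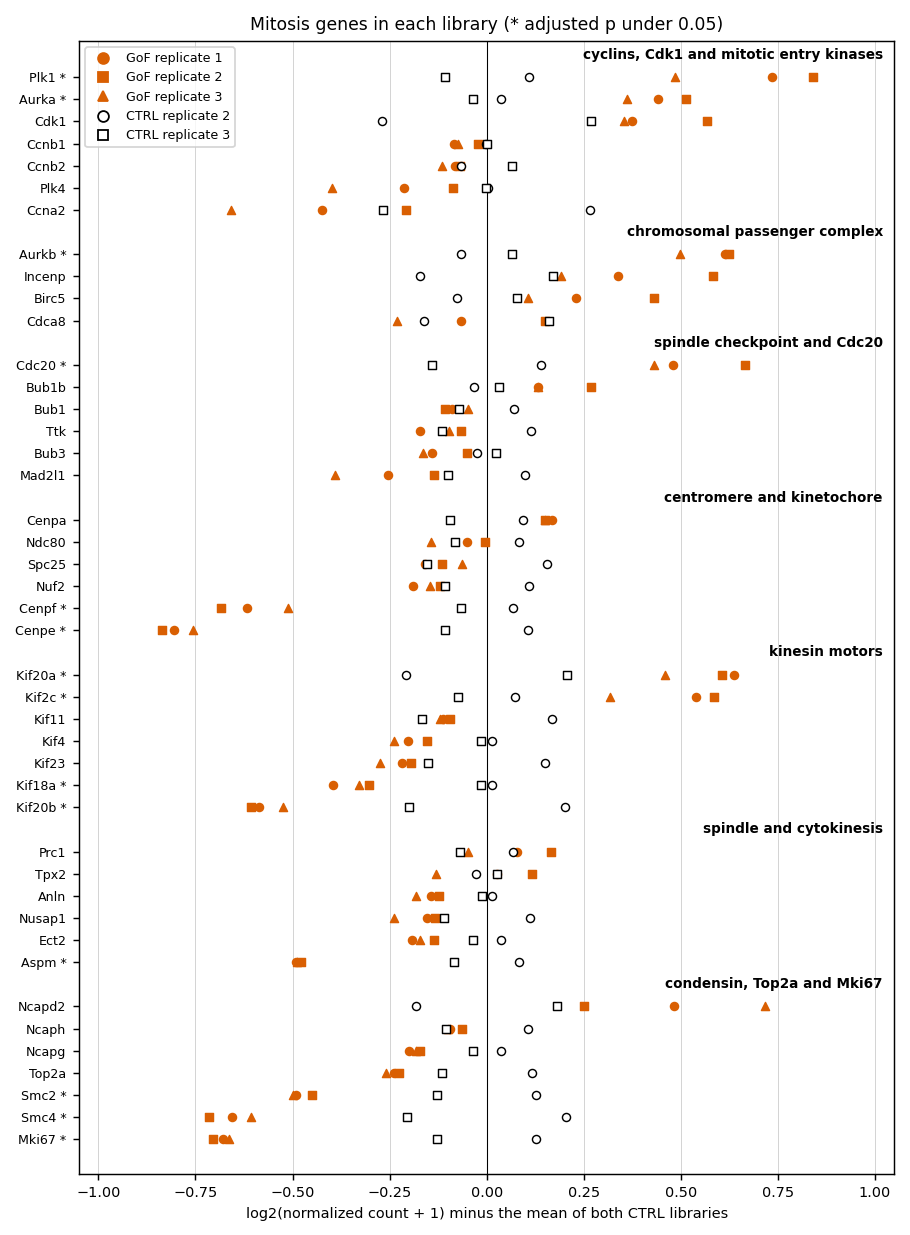
Normalized counts of the 43 mitosis genes in each GoF and CTRL library, as log2 differences from the CTRL mean of each gene, with members arranged by role group. Plk1 (0.69) lies at the high end and Cenpe (-0.80) at the low end of the fitted log2 fold changes.

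The group named here for mitotic entry held 7 genes: cyclins, Cdk1 and the kinases Plk1, Plk4 and Aurka. Of these, Plk1 and Aurka were higher in GoF libraries and 0 were lower, with a median log2 fold change of -0.06 over the group. Plk1, the Polo-like kinase that promotes mitotic entry and spindle pole maturation, lies at chr7:122159439-122169873 (GRCm38, GENCODE M21, as for the members below). It had 889.0, 957.7 and 747.6 normalized counts in GoF libraries, against 575.7 and 495.4 in CTRL libraries. The groups did not overlap, and GoF replicate 3 was the lowest of its group (1.61-fold, log2 fold change 0.69, SE 0.14, limma adjusted p = 0.0155). Without GoF replicate 1 the adjusted p of Plk1 was 0.054 and without GoF replicate 2 it was 0.0516, while it passed without each of the other 3 libraries. Of the exon bases of Plk1, 7.09% overlap the gene Gm44985 on the opposite strand.

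Aurka, the Aurora kinase of spindle poles (chr2:172356190-172370535), had 846.0, 889.7 and 801.0 normalized counts in GoF libraries, against 639.0 and 607.7 in CTRL libraries. All GoF values were higher than both CTRL values (1.36-fold, log2 fold change 0.44, SE 0.11, limma adjusted p = 0.0275). Aurka no longer passed without GoF replicate 1 (adjusted p = 0.15) or GoF replicate 2 (adjusted p = 0.0889). Ccna2, the cyclin A of somatic S phase and G2, was the most extreme lower value of the entry group and did not pass. Its normalized counts were 9038.9, 10506.9 and 7684.3 in GoF libraries, against 14592.9 and 10076.6 in CTRL libraries. GoF replicate 2 lay above CTRL replicate 3, so the groups overlapped (log2 fold change -0.43, SE 0.17, limma adjusted p = 0.106). Cdk1, the catalytic partner of these cyclins, did not pass either (log2 fold change 0.43, SE 0.16, limma adjusted p = 0.0915), and Ccnb1, Ccnb2 and Plk4 had log2 fold changes of -0.06, -0.09 and -0.23.

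The chromosomal passenger complex corrects faulty attachments at centromeres and then moves to the midzone, and 1 of its 4 genes, the kinase Aurkb, was higher in GoF libraries. Aurkb (chr11:69045647-69051664) had 2070.3, 2082.8 and 1908.5 normalized counts in GoF libraries, against 1292.1 and 1413.8 in CTRL libraries. GoF libraries were well apart from CTRL libraries (1.49-fold, log2 fold change 0.58, SE 0.09, limma adjusted p = 0.00795). Aurkb was the only one of the 6 higher members called without each GoF library in turn, with adjusted p of 0.0374, 0.0322 and 0.0161 without GoF replicates 1, 2 and 3. The partners of Aurkb did not pass: log2 fold changes were 0.37 for the scaffold Incenp, 0.26 for Birc5 (survivin) and -0.05 for Cdca8 (borealin). Cdca8 had 1356.6, 1575.6 and 1210.3 normalized counts in GoF libraries, against 1271.0 and 1588.5 in CTRL libraries. The 2 groups of Cdca8 values overlapped (SE 0.14, limma adjusted p = 0.821).

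Among the 6 genes of the spindle checkpoint and its target, 1 was called, Cdc20, the APC/C activator on which the checkpoint acts. Cdc20 (chr4:118432901-118437352) had 626.5, 712.6 and 605.2 normalized counts in GoF libraries, against 494.8 and 406.8 in CTRL libraries. The groups did not overlap (1.44-fold, log2 fold change 0.53, SE 0.14, limma adjusted p = 0.0339), and the adjusted p was 0.113, 0.103 and 0.0534 without GoF replicates 1, 2 and 3 and 0.0764 without CTRL replicate 3. The checkpoint kinase Bub1 was the most abundant gene of the group by count and had 7815.6, 7716.4 and 8040.3 normalized counts in GoF libraries, against 8731.6 and 7914.0 in CTRL libraries. GoF replicate 3 lay above CTRL replicate 3 (log2 fold change -0.08, SE 0.08, limma adjusted p = 0.462). Mad2l1, which encodes the Mad2 protein that binds Cdc20, had 7361.4, 7988.9 and 6696.5 normalized counts in GoF libraries, against 9410.4 and 8198.6 in CTRL libraries. Every GoF value of Mad2l1 was under both CTRL values, and the test was not passed (log2 fold change -0.26, SE 0.10, limma adjusted p = 0.0942). Bub1b, Bub3 and Ttk had log2 fold changes of 0.18, -0.12 and -0.11.

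Of the 6 centromere and kinetochore genes, 2 were lower in GoF libraries, the motor Cenpe and the fibrous corona protein Cenpf, and 0 were higher. Cenpe, a kinesin that carries chromosomes to the metaphase plate (chr3:135212537-135273611), had 24276.4, 23759.8 and 25141.1 normalized counts in GoF libraries, against 45727.3 and 39401.7 in CTRL libraries. Its GoF mean of 24392.4 ± 697.9 (SD, n = 3), against a CTRL mean of 42564.5 (n = 2), gave the lowest fold change of the module (0.575-fold, log2 fold change -0.80, SE 0.08, limma adjusted p = 0.00302). The adjusted p of Cenpe was 0.00178 without GoF replicate 1. Cenpf (chr1:189640606-189688086) had 26907.6, 25688.9 and 28982.4 normalized counts in GoF libraries, against 43253.3 and 39403.0 in CTRL libraries. These groups were likewise apart (0.658-fold, log2 fold change -0.60, SE 0.08, limma adjusted p = 0.00481).

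The histone variant Cenpa, which marks centromeric chromatin, went the other way in sign without passing the test. It had 2746.0, 2714.5 and 2711.9 normalized counts in GoF libraries, against 2608.8 and 2291.1 in CTRL libraries (log2 fold change 0.16, SE 0.09, limma adjusted p = 0.23). The module holds 3 of the subunits of the Ndc80 complex, which binds microtubules at the outer kinetochore. They had log2 fold changes of -0.07 (Ndc80), -0.15 (Nuf2) and -0.11 (Spc25), and 0 of the 3 passed.

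Of the 7 kinesins, 2 were higher and 2 were lower in GoF libraries. Kif20a, a motor of the central spindle, had 891.1, 871.9 and 788.0 normalized counts in GoF libraries, against 496.0 and 661.4 in CTRL libraries. Its groups did not overlap (1.48-fold, log2 fold change 0.57, SE 0.15, limma adjusted p = 0.0301). The adjusted p was 0.109 without GoF replicate 1, 0.0842 without GoF replicate 2 and 0.068 without CTRL replicate 2. The value of Kif20a is uncertain, since 29.3% of its exon bases overlap Cdc23 on the opposite strand, which averaged 2243 normalized counts, and the strand setting is not given in the sources used here. Kif2c, a kinesin that depolymerizes microtubules (chr4:117159639-117182639), had 981.3, 1013.5 and 842.2 normalized counts in GoF libraries, against 710.5 and 641.4 in CTRL libraries. The groups were separate (1.40-fold, log2 fold change 0.48, SE 0.12, limma adjusted p = 0.0298). Its adjusted p was 0.139 without GoF replicate 1, 0.092 without GoF replicate 2 and 0.0669 without CTRL replicate 3.

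Kif20b, a kinesin of the midbody (chr19:34922361-34975745), had 9950.5, 9815.3 and 10394.6 normalized counts in GoF libraries, against 17177.0 and 13007.9 in CTRL libraries. The CTRL libraries differed from each other by more than the GoF libraries did, and all GoF values were lower (0.672-fold, log2 fold change -0.57, SE 0.11, limma adjusted p = 0.0135). Kif18a, which dampens chromosome movements at metaphase (chr2:109280738-109341747), had 1922.6, 2051.2 and 2016.1 normalized counts in GoF libraries, against 2558.4 and 2505.7 in CTRL libraries. The groups were apart (0.788-fold, log2 fold change -0.34, SE 0.08, limma adjusted p = 0.025), and Kif18a was the only one of the 8 lower members to lose its call when any 1 GoF library was left out (adjusted p 0.173, 0.0613 and 0.0569 without GoF replicates 1, 2 and 3). Kif11, Kif23 and Kif4, which push spindle poles apart, build the central spindle and organize its midzone, had log2 fold changes of -0.11, -0.23 and -0.20 and did not pass.

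Of the 6 spindle and cytokinesis genes, 1 was called. Aspm, a spindle pole protein best known from microcephaly (chr1:139454772-139494091), had 11596.3, 11695.9 and 11607.4 normalized counts in GoF libraries, against 17269.7 and 15362.6 in CTRL libraries. The GoF libraries were nearly equal and all lower than CTRL libraries (0.714-fold, log2 fold change -0.49, SE 0.08, limma adjusted p = 0.00709). Prc1, which bundles midzone microtubules, had 1881.6, 1997.0 and 1724.1 normalized counts in GoF libraries, against 1867.8 and 1698.4 in CTRL libraries. Its groups overlapped (log2 fold change 0.07, SE 0.10, limma adjusted p = 0.659). Log2 fold changes were 0.00 for Tpx2, which brings Aurora A to the spindle, -0.17 for Nusap1, -0.15 for the furrow protein Anln and -0.17 for Ect2, the exchange factor that starts the furrow.

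Of the 7 genes of chromosome structure, 3 were lower in GoF libraries and 0 higher, and the median log2 fold change of the group was -0.24. Mki67 encodes the Ki-67 protein that coats mitotic chromosomes and is the usual marker of cycling cells (chr7:135689784-135716361). It had 49460.2, 48565.4 and 49939.9 normalized counts in GoF libraries, against 86478.5 and 72438.1 in CTRL libraries. The GoF libraries were close together and far under both CTRL libraries (0.623-fold, log2 fold change -0.68, SE 0.08, limma adjusted p = 0.00395, and 0.00377 without GoF replicate 1). Mki67 and Aurkb, both used as markers of dividing cells, were thus called in opposite directions in the same libraries.

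Smc4 and Smc2 encode the paired ATPase subunits shared by both condensin complexes, and both were lower in GoF libraries. Smc4 (chr3:69004738-69034623) had 30106.8, 28889.5 and 31148.2 normalized counts in GoF libraries, against 54659.3 and 41126.3 in CTRL libraries. The groups of Smc4 did not overlap (0.633-fold, log2 fold change -0.66, SE 0.11, limma adjusted p = 0.00914). Smc2 (chr4:52439243-52488260) had 10753.4, 11056.9 and 10681.8 normalized counts in GoF libraries, against 16502.9 and 13821.5 in CTRL libraries. All GoF values of Smc2 were lower (0.717-fold, log2 fold change -0.48, SE 0.09, limma adjusted p = 0.0109).

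The condensin I subunits did not follow in the test. Ncapg had 3573.5, 3647.1 and 3622.9 normalized counts in GoF libraries, against 4210.4 and 4005.7 in CTRL libraries (log2 fold change -0.18, SE 0.08, limma adjusted p = 0.114). The value of Ncapg is uncertain, since 13.4% of its exon bases overlap Lcorl on the opposite strand, which averaged 3295 normalized counts. Ncapd2 had 2114.4, 1800.5 and 2489.4 normalized counts in GoF libraries, against 1334.3 and 1718.3 in CTRL libraries, and the groups were just apart (log2 fold change 0.48, SE 0.16, limma adjusted p = 0.0602). Ncaph had a log2 fold change of -0.09 and Top2a, the topoisomerase that untangles sister chromatids, of -0.24 (SE 0.08, limma adjusted p = 0.062).

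In summed normalized counts the 43 members came to 316094.4, 318493.4 and 316033.9 in GoF libraries, against 459508.8 and 393651.8 in CTRL libraries. The 3 GoF sums were nearly equal and lower than both CTRL sums, and so were the sums over all genes tested, mitochondrial genes included, with 35130297, 35744272 and 34670345 in GoF libraries, against 52039677 and 42854708 in CTRL libraries. As a share of these, the members took 0.900%, 0.891% and 0.912% in GoF libraries, against 0.883% and 0.919% in CTRL libraries, so the shares of all counts overlapped. Mitochondrial genes took 35.7% to 37.4% of reads in GoF libraries, against 44.4% to 50.7% in CTRL libraries. With these mitochondrial shares set aside, the members' share of the remaining counts was lower in each GoF library than in both CTRL libraries. Its size is not given here, and the difference was not tested. The 8 lower members alone made up 164973.8, 161522.8 and 169911.5 of the members' counts in GoF libraries, against 283626.4 and 237066.8 in CTRL libraries. The 6 higher members summed to 6304.2, 6528.2 and 5692.4 in GoF libraries, against 4208.1 and 4226.6 in CTRL libraries. As these sets were chosen by their fold changes, the sums describe them and test nothing. By library, the median over members of the log2 difference from the CTRL mean was -0.14, -0.09 and -0.14 in GoF replicates 1, 2 and 3.

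Libraries of the same group differed as well. CTRL replicate 2 was above CTRL replicate 3 in 31 of the 43 members (median log2 difference 0.14) and in all 8 lower members (median 0.24). GoF replicate 2 was above GoF replicate 3 in 35 members, by a median of 0.06.

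The members called higher and lower differed in transcript composition and length, which the rule did not use. The longest transcripts of the 6 higher members had 48.4% to 56.0% GC and 1793 to 3674 nt. Those of the 8 lower members had 38.2% to 46.6% GC and 4316 to 11130 nt, so the sets overlapped in neither measure. Those of the 29 members without a call spanned 34.8% to 54.7% GC. Over all genes tested the median was 48.2% GC and 3147.5 nt. Across the 43 members, which share the same 5 libraries, log2 fold change had a Spearman correlation of 0.71 with GC content and -0.63 with log2 length, and GC content and log2 length had one of -0.47 with each other. Across all 16266 genes with a GC value these correlations were 0.56 with GC content and -0.07 with log2 length.

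**Figure D2:**
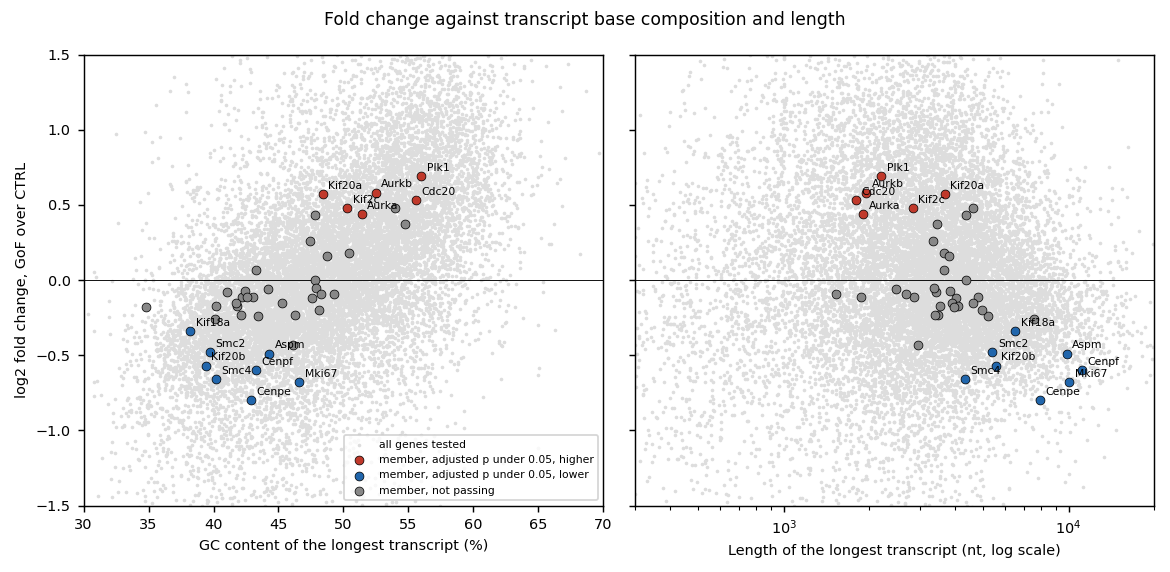
Log2 fold change (GoF over CTRL) of each mitosis gene against the GC content (percent) and the length (nt, log axis) of its longest transcript, with members called higher in red, members called lower in blue, other members in dark grey and all genes tested in light grey (points beyond the axes are not drawn). The 6 higher members lie at 48.4% GC or more and 3674 nt or less, and the 8 lower members at 46.6% GC or less and 4316 nt or more.

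When the trend of each library on GC content was removed, 506 genes (3.11%) were called higher and 542 (3.33%) lower, 6.44% in all. Of the members, 4 were then lower in GoF libraries (Cenpe, Mki67, Cenpf and Aspm) and 1 higher (Ncapg), and the 6 members called higher before no longer passed. In that fit the log2 fold change of Cenpe was -0.56 (limma adjusted p = 0.00827), of Mki67 -0.58 (adjusted p = 0.0115), of Cenpf -0.37 (adjusted p = 0.0209) and of Aspm -0.29 (adjusted p = 0.0398). Aurkb had a log2 fold change of 0.33 (limma adjusted p = 0.0574) and Kif20a of 0.57 (adjusted p = 0.0537), while Plk1 had 0.21 (adjusted p = 0.385) and Cdc20 0.07 (adjusted p = 0.796). Ncapg, the member with the lowest GC content (34.8%), had a log2 fold change of 0.42 (limma adjusted p = 0.0317) with the trend removed, in place of -0.18 as first fitted, and its reads may include some of Lcorl. Kif18a likewise had 0.10 in place of -0.34. The median over members was 0.09 with the GC trend removed, against 0.00 over all genes, so its sign depended on this step.

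With a trend on log2 length removed as well, 5.5% of genes were called (2.77% higher and 2.72% lower), and 3 members: Cenpe (-0.46, limma adjusted p = 0.0085) and Mki67 (-0.43, adjusted p = 0.0146) lower, and Ncapg (0.38, adjusted p = 0.037) higher. Over the 43 members log2 fold change still had a Spearman correlation of -0.27 with log2 length in this fit. With only the GC trend removed it was -0.39. The length trend was fitted over all genes, where that correlation was -0.05 with the GC trend removed. Cenpe and Mki67 were called in the 26 other settings tried, each time lower in GoF libraries, with adjusted p of at most 0.0415 and 0.0493. Leaving out GoF replicate 1 in the fit without the GC trend, 0.798% of genes were called, and Cenpe and Mki67 were the members among them. The trend removal also takes away any change that truly follows composition, and the part of composition in each result was not tested.

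**Figure D3:**
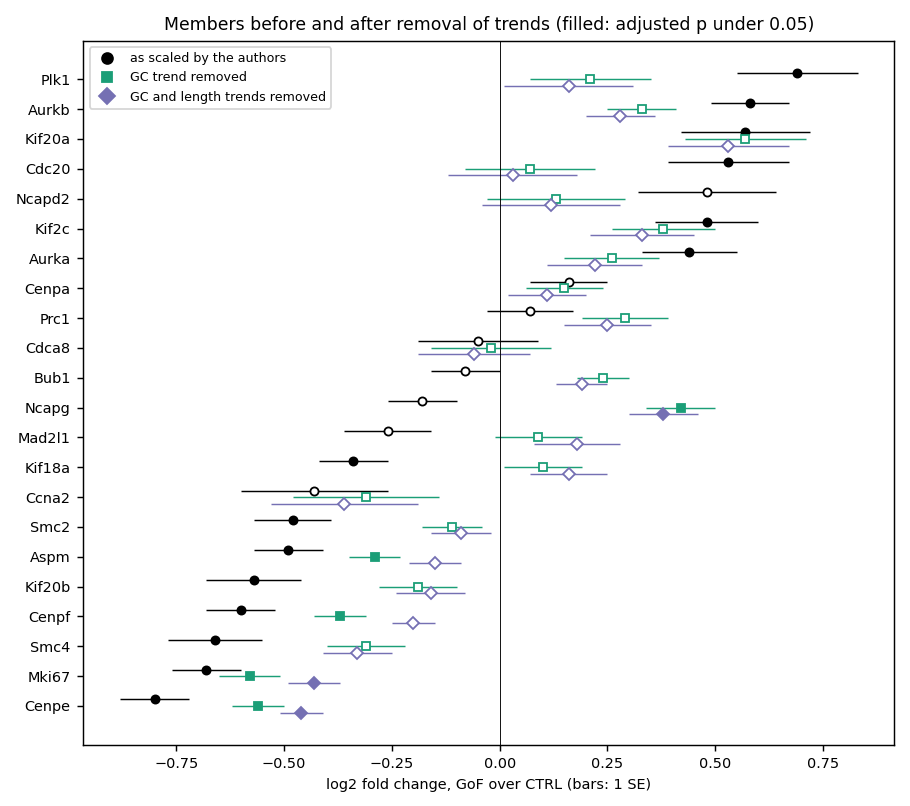
Log2 fold change (GoF over CTRL) of the mitosis genes with values in every library, as fitted, with the GC trend removed, and with the GC and length trends removed, with bars of 1 SE. Cenpe (-0.80, -0.56 and -0.46) and Mki67 (-0.68, -0.58 and -0.43) stay lower in each fit, whereas Plk1 (0.69, 0.21 and 0.16) and Cdc20 (0.53, 0.07 and 0.03) move towards 0.

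Levels between members were compared as normalized counts per kilobase of longest transcript. Top2a was at the top in GoF libraries with a mean of 7538 per kilobase, followed by Smc4 with 6962, Mki67 with 4902, Cenpe with 3084 and Ccna2 with 3061. In CTRL libraries the same quantity was 8934 for Top2a, 11100 for Smc4, 7898 for Mki67, 5381 for Cenpe and 4160 for Ccna2, so Smc4 came before Top2a there. In GoF libraries Top2a (7446 to 7617 per kilobase) and Smc4 (6694 to 7217) did not overlap, whereas Cenpe (3004 to 3178) and Ccna2 (2592 to 3544) did. In CTRL libraries Smc4 (9529 to 12660) and Top2a (8216 to 9652) overlapped. The lowest members were Birc5 with 213.1 per kilobase in GoF libraries and 178.0 in CTRL libraries, Kif20a with 231.4 and 157.5, and Cdk1 with 269.5 and 202.9. All 6 members higher in GoF libraries stood at rank 20 or below of the 43 in GoF libraries. Length correction assumes that the longest transcript is the one expressed and does not correct for GC content.

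**Figure D4:**
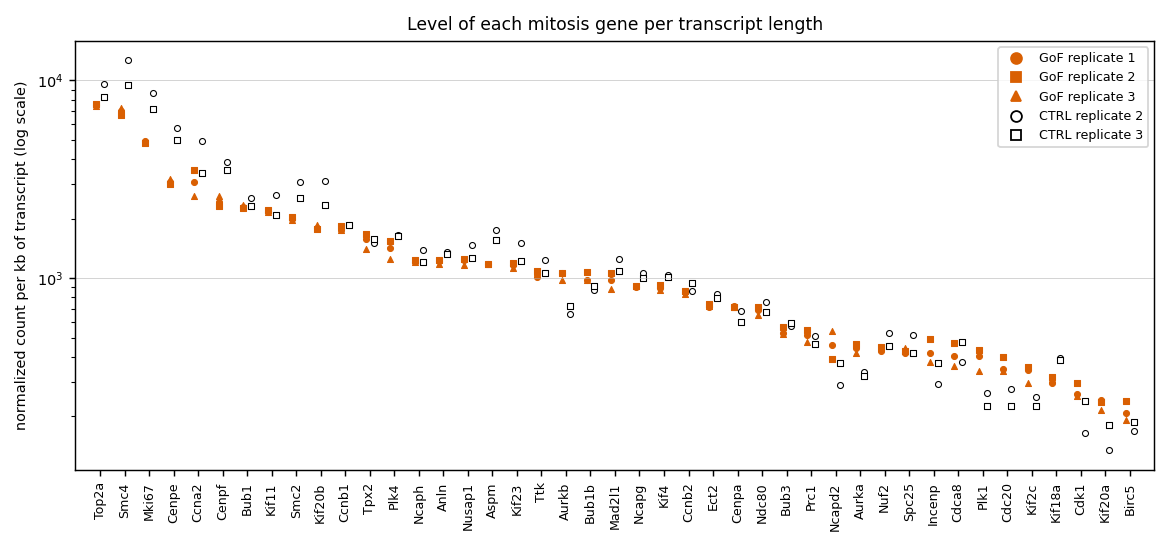
Level of each mitosis gene in GoF and CTRL libraries as normalized counts per kilobase of longest transcript (log axis), ordered by the GoF mean, with a point per library. Top2a (7538 in GoF and 8934 in CTRL) is at one end and Birc5 (213.1 in GoF and 178.0 in CTRL) at the other.

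Other genes of mitosis, from lists written with earlier results of these data known, are set here beside the shares of all genes, which were 12.2% higher and 10.9% lower as fitted, 3.11% and 3.33% after GC correction, and 4.06% and 3.32% without GoF replicate 1. Of 34 other kinetochore and centromere genes, 3 were higher and 5 lower in GoF libraries (median log2 fold change -0.06), near those shares. After GC correction 4 of 31 were higher and 0 lower (median 0.13), and without GoF replicate 1 there were 2 of 34 in each direction. Those of lowest adjusted p as fitted were Pmf1, a Mis12 complex subunit (0.93, limma adjusted p = 0.00686), Hjurp, the chaperone of Cenpa (0.47, adjusted p = 0.00729), and Sgol2a, a shugoshin that protects centromeric cohesin (-0.59, adjusted p = 0.00752). Of 15 other condensin and cohesin genes, 8 were lower and 1 higher (median -0.34), among them the cohesin core subunit Smc3 (-0.54, limma adjusted p = 0.00533), its release factor Wapl (-0.53, adjusted p = 0.00533) and its loader Nipbl (-0.52, adjusted p = 0.00676). These had the direction of Smc2 and Smc4. After GC correction 2 of the 15 were lower and 1 was higher, and without GoF replicate 1 there were 4 lower and 1 higher.

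The APC/C list, the machinery that Cdc20 activates, had 9 of 22 genes higher and 2 lower in GoF libraries (median log2 fold change 0.25). Ube2c, the ubiquitin-conjugating enzyme of the APC/C, had a log2 fold change of 0.63 (limma adjusted p = 0.00484), the APC/C inhibitor Mad2l2 of 1.18 (adjusted p = 0.00934) and the subunit Cdc27 of -0.48 (adjusted p = 0.00728). After GC correction 3 of its genes were higher and 0 lower, and without GoF replicate 1 the counts were 4 and 1. Of 32 other spindle genes, 5 were higher and 7 lower, with 2 and 3 after GC correction and 1 and 4 without GoF replicate 1. The ones of lowest adjusted p were the augmin subunit Haus6 (-0.51, limma adjusted p = 0.00799), the centriole protein Cenpj (-0.56, adjusted p = 0.0107) and the kinesin Kif22 (0.64, adjusted p = 0.0111).

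Among 23 regulators of mitotic genes, 7 were higher and 4 lower in GoF libraries (median log2 fold change -0.02). Foxm1, a factor that activates G2 and mitosis genes together with the MuvB complex, was higher (0.50, limma adjusted p = 0.0102), and so were the MuvB subunit Lin37 (1.07, adjusted p = 0.00977) and the cyclin F gene Ccnf (0.83, adjusted p = 0.00533). The list had 2 higher and 0 lower after GC correction, and 4 and 0 without GoF replicate 1. After GC correction Ccnf still passed (adjusted p = 0.0318) and Foxm1 did not (adjusted p = 0.466). Of 40 genes of G1/S and DNA replication, 11 were higher and 1 lower (median 0.25), led by Cdk4, the kinase of G1 (0.98, limma adjusted p = 0.00294), the GINS subunit Gins2 (1.37, adjusted p = 0.005) and the helicase subunit Mcm2 (0.62, adjusted p = 0.00876). After GC correction 3 of these were higher and 0 lower, and without GoF replicate 1 the counts were 5 and 0.

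Of 10 cell cycle inhibitors, 1 was higher and 2 lower in GoF libraries. Cdkn1a, which encodes the Cdk inhibitor p21, was the higher one (1.54, limma adjusted p = 0.00935), while the retinoblastoma gene Rb1 (-0.46, adjusted p = 0.0175) and the inhibitor gene Cdkn1c (-0.36, adjusted p = 0.0295) were lower. After GC correction 1 of the inhibitors, Cdkn1c, passed (-1.01, limma adjusted p = 0.00351). Of the genes named from these lists, Pmf1, Hjurp, Smc3, Cenpj, Kif22, Ccnf, Cdk4 and Gins2 also passed after GC correction, and Sgol2a had no GC value. Without GoF replicate 1 the calls of Kif22 (limma adjusted p = 0.0706), Lin37 (adjusted p = 0.0632), Rb1 (adjusted p = 0.0852) and Cdkn1c (adjusted p = 0.163) were lost.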

How the data were processed

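Per the labels' protocols, cDNA from microdissected tissue was made with random and poly-T primers and amplified before library preparation, a step that can favour transcripts by their composition. According to the submitters' processing notes the tools were STAR 2.5.2, bcl2fastq 2.17.1.14, HTSeq, DESeq2 and R, on build mm10. Annotation, filters and strand setting: not given in the sources used here. The authors' deposited table holds a signal per gene and library, called normalized count here, and, per the file headers, the authors' own log2 fold change, score and p-value (raw and adjusted), which were not used. Each deposited signal was a whole number of reads divided by 1 factor per library (100% of values within 0.001 of a whole number), so counts could be recovered. The lowest mean was 6.1, so genes below it were not analysed here, and 13 genes are named as dates.

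The log2 of normalized count plus 1 entered limma 3.58.1 (R 4.3.3, linear model with a trended, robust empirical Bayes step and no covariates) for genes of mean 10 or more, and p-values were adjusted by Benjamini-Hochberg over all of them. The design took all CTRL and GoF libraries with values and gave limma, with edgeR as the main test only for raw counts. As the deposited values are normalized, limma was used. The limma fit was tested on simulated counts with a fixed spread and no library effects beyond depth. These data need not share that setting, so the run does not bear on the calls here. Alternatives were edgeR 4.0.16 (quasi-likelihood) and DESeq2 1.42.0 on the recovered counts, TMM and quantile scaling, a pseudocount of 8, no filter and a mean of at least 50, each library left out, a replicate block, and removal of a lowess trend (span 0.3) on GC content of the longest GENCODE M21 transcript (GRCm38, matched for 96.9% of genes). Removal of a second trend on length, and libraries left out in these fits other than GoF replicate 1 with the GC trend, were added after seeing the data. Replicate numbers were not treated as pairs in the main fit. Deviations of the replicate 2 libraries from their groups had a correlation of 0.0049 over 16794 genes. The 2 shared numbers mirror each other, so this cannot show whether libraries were paired.

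The members and gene lists were chosen with earlier results of these data known. Values in every library are given for members called as fitted or with the GC trend removed, for Mki67 and Aurkb, and in each role group for the most abundant member and those of highest and lowest fold change. Of each other list, up to 3 called genes of lowest adjusted p are named. The remaining members are given by their fold changes, and those named in the order of levels were chosen after their values were seen. Depth was 34260116 to 44384354 reads per library. Without molecular identifiers, amplified reads need not be independent, so no counting intervals are given.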

Additional observations from a re-analysis of the deposited data

How the results depend on the processing

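With 2 CTRL libraries every test rests on few degrees of freedom, and a lone CTRL library is assumed to vary like the GoF libraries. The edgeR test called 2080 genes higher and 1679 lower in GoF libraries (members 6 and 8), and DESeq2 2212 and 2241 (members 7 and 9). Counts stayed within 1.5 times under TMM or quantile scaling, a pseudocount of 8 and both other filters, while the median over members was -0.04 with quantile scaling. GC trend removal left 506 higher and 542 lower (members 1 and 4, median 0.09), and with the length trend removed as well 451 and 443 (members 1 and 2, median 0.07). The replicate block, on numbers that share no stated origin, gave 765 higher and 606 lower (members 2 and 8). The replicate block with the GC trend removed gave 73 and 90 (members 0 and 2, median 0.10), where 4 members were higher and 6 lower at an unadjusted limma p under 0.05. Leaving out a library, with or without trend removal, gave 43 to 2724 genes higher and 60 to 2547 lower, 0 to 7 members higher and 2 to 15 lower, and medians of -0.19 to 0.12. The log2 fold change turned positive for Bub1 with quantile scaling (0.11), the GC trend removed (0.24), both trends removed (0.19) and the block with the GC trend removed (0.24), and in the last 3 of these for Kif18a (0.10, 0.16 and 0.12), Mad2l1 (0.09, 0.18 and 0.09) and Ncapg (0.42, 0.38 and 0.42). Leaving out libraries gave log2 fold changes of -0.15 to 0.25 for Bub1, -0.20 to 0.67 for Cdc20, -0.21 to 0.14 for Cdca8, -0.36 to 0.23 for Kif18a, -0.36 to 0.27 for Mad2l1, -0.02 to 0.67 for Ncapd2, -0.22 to 0.47 for Ncapg, -0.03 to 0.79 for Plk1 and -0.0028 to 0.36 for Prc1. Of 598 values (23 genes, 26 alternatives), 360 kept direction and side of the threshold, 161 lost a call, 9 gained one and 68 changed sign. The cause was not tested.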
